A study of Mus musculus with 19 samples.

Results

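The genes described here are 9 genes that mark B lymphocytes or carry their receptor signal: Cd79a, Cd79b, Ms4a1, Cr2, Fcer2a, Cd22, Cd72, Blk and Pax5. They were followed in the lungs of 18 male MutaMouse animals, a transgenic strain that carries a bacterial reporter for mutation assays. The members were found by the RefSeq accession printed for each probe on the array. The 9 genes had 12 probes among 55681, of which 10 probes for 8 genes were bright enough in lung to be tested among 31051 tested probes. Cr2, Cd72 and Pax5 had 2 probes each and the other genes 1. Where 1 value is given per gene, it comes from the tested probe with the brightest lung signal.

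The mice were about 12 weeks old and were gavaged on 28 consecutive days with olive oil, either alone (D0, 5 mice) or carrying a mixture of 8 polycyclic aromatic hydrocarbons. The mixture was given at 15 (D1, 4 mice), 30 (D2, 5 mice) or 60 (D3, 4 mice) mg of benzo(a)pyrene (BaP) equivalents per kg body weight per day, and lung was taken 72 h after the last dose. Each array set lung RNA against one reference, a pool of RNA from 11 cell lines of mouse, and values are log2 ratios of lung over reference. Per the labels RNA came from random sections of lung, and per the methods the right lobe was taken. The p-values measure the spread between mice. Mouse 23 is labelled D2, although its number falls among those of the D1 mice and the methods give D1 the larger group. It was kept as labelled.

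B cells recognise antigen through a membrane immunoglobulin that cannot signal by itself. Its signal passes through the paired chains CD79A and CD79B, whose tails are phosphorylated by kinases of the Src family such as BLK. CR2 (CD21) lowers the threshold for this signal when antigen carries complement, CD22 and CD72 raise it by recruiting a phosphatase, and PAX5 keeps the B cell programme switched on. In lung, B cells circulate in blood, lodge in the tissue and gather in lymphoid aggregates along the airways. In bulk lung tissue, fewer B cells and less RNA per B cell cannot be told apart.

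Promoter sequence was available from RefSeq (GRCm38.p6) for 6 of the 9 genes, as 8 windows of 300 bases that run from 250 bases before a start site to 50 bases after it. They were searched on both strands for GCGTG, the core of the element bound by the aryl hydrocarbon receptor, and for ATGCAAAT, the octamer typical of B cell promoters. No match of one motif overlapped a match of the other. GCGTG occurred in 2 of the 8 windows, those of Cd79a and Pax5, and in 32.4% of all 32851 promoters. ATGCAAAT occurred in 0 of the 8 and in 1.74% of all promoters. The windows of Cd79a (chr7:24897247-24897546, plus strand) and Pax5 (chr4:44710645-44710944, minus strand) are shown because they hold GCGTG, and that of Cr2 (chr1:195176670-195176969, minus strand) because Cr2 had the largest D2 difference. Each is written 5′ to 3′ on the strand of its gene, and capitals mark GCGTG, which here lies on the opposite strand and reads CACGC.
Cd79a: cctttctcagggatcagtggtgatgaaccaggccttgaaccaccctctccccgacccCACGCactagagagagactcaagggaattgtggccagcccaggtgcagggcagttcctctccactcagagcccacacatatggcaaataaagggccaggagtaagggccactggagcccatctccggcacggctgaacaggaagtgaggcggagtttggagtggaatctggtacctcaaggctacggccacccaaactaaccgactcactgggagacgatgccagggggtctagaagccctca
Pax5: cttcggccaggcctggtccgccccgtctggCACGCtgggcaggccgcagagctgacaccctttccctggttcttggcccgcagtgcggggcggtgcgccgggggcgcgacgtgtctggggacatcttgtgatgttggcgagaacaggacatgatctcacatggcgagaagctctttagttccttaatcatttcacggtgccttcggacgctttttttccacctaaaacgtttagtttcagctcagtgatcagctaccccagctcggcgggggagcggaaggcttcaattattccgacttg
Cr2: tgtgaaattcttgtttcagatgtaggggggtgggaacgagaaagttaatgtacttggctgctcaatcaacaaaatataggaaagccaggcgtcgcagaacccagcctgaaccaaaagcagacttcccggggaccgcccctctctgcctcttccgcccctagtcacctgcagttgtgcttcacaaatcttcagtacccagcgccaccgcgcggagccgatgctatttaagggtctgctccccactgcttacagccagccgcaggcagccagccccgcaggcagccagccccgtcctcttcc
Counted from the start site, the match began at -193 in Cd79a and at -220 in Pax5, and Cr2 held neither motif. A match is a run of letters and not a measured binding site. The windows of Fcer2a (3 start sites), Cd22 and Cd72 held neither motif. Cd79b, Ms4a1 and Blk had no entry.

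None of the 10 tested member probes was called at any dose by limma. A call required 1.5-fold or more together with a p of 0.05 or less after Benjamini-Hochberg adjustment over all tested probes. Calls against D0 made up 1.06% of all tested probes for D1, 0.625% for D2 and 2.44% for D3. The exposure itself was visible in the same arrays. Cyp1b1, an enzyme that metabolises such hydrocarbons, and Cdkn1a, a cell cycle inhibitor induced by DNA damage, were called higher at all 3 doses, and Cyp1a1 at D2 and D3.

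Across the 8 tested genes, the median log2 fold change against D0 was 0.16 at D1, 0.39 at D2 and -0.11 at D3, and the medians over all tested probes were within 0.01 of 0. The sign turned at D1 without D0 mouse 2 (-0.12) and at D3 with arrays centred on their medians in place of loess (0.014). At D2 7 of the 8 genes lay above their D0 mean, and the same D0 mice enter all 3 comparisons. At an unadjusted p under 0.05, 0 tested member probes lay higher at D1 (10.4% of all probes did), 3 lay higher at D2 (7.87%) and 1 lay lower at D3 (13.1%). The 3 at D2 were both Cr2 probes and Fcer2a, and the 1 at D3 was a Cd72 probe. The lowest adjusted p among the members was 0.333 at D1, 0.244 at D2 and 0.157 at D3.

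**Figure D1:**
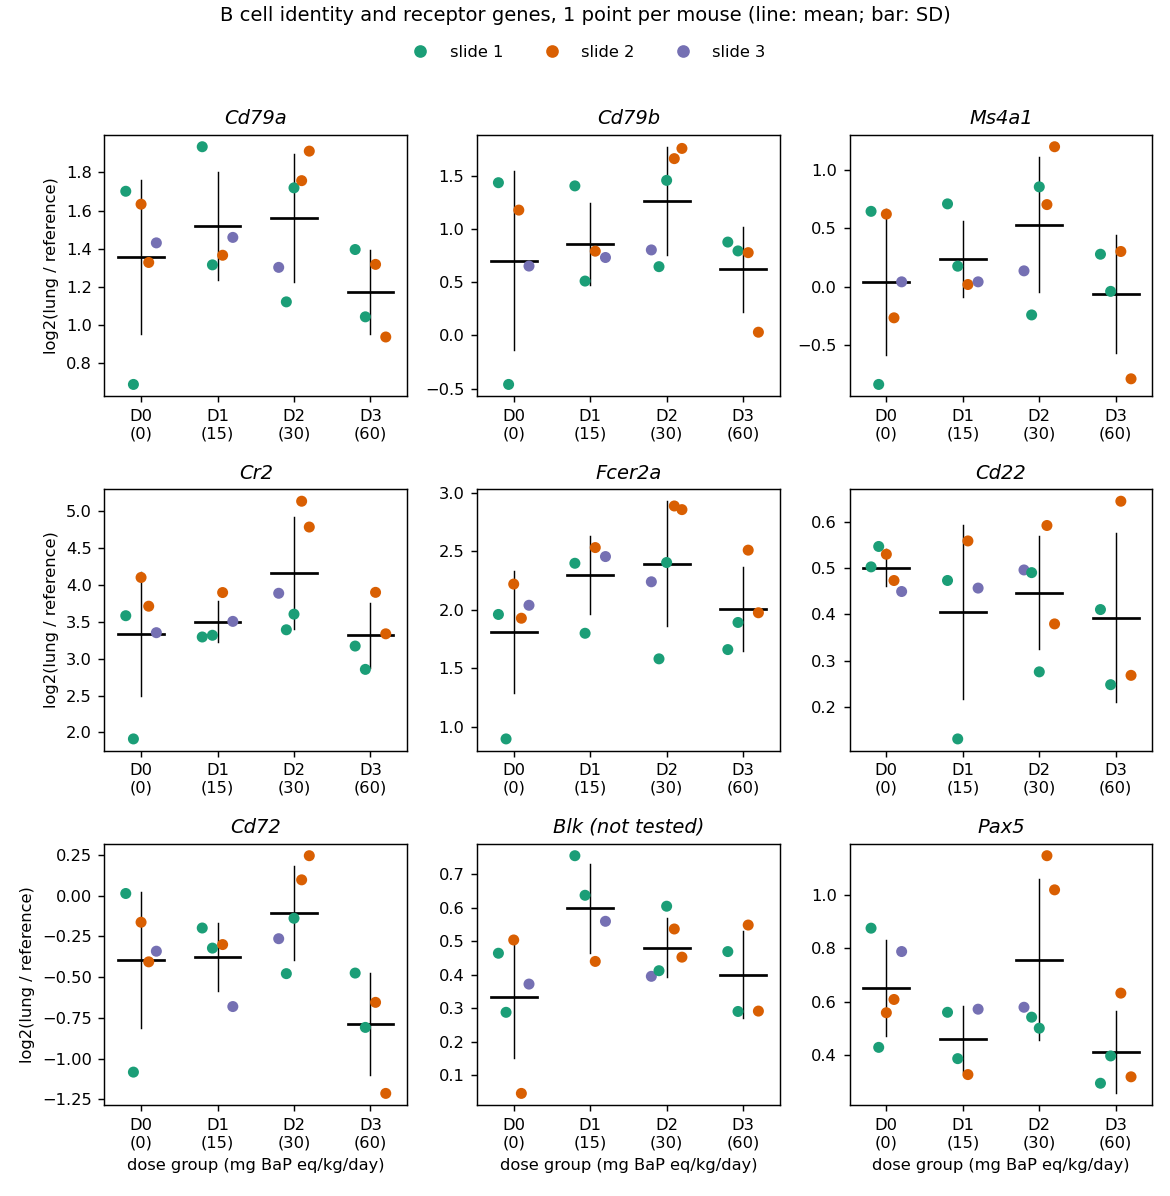
The log2 ratio of lung over reference (vertical axis, own scale per gene) for each member gene in each mouse, by dose group (horizontal axis). Points are mice, coloured by slide (mouse 35, the mean of arrays on slides 2 and 3, has the colour of slide 2), lines are group means and bars are SD. The groups overlap in every panel, and the lowest D0 point of Cd79a, Cd79b, Ms4a1, Cr2, Fcer2a, Cd72 and Pax5 is the same mouse, mouse 2.

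The receptor chains gave overlapping values in all groups. Cd79a read 1.70, 0.69, 1.63, 1.33 and 1.43 in D0 mice 1 to 5, and 1.93, 1.32, 1.37 and 1.46 in D1 mice 21, 22, 24 and 25. At D2 mice 23, 26, 28, 29 and 30 read 1.30, 1.12, 1.72, 1.76 and 1.91, and at D3 mice 31, 32, 34 and 35 read 1.40, 1.04, 1.32 and 0.94. Mouse 2 was lowest of all and D1 mouse 21 highest. The D2 mean of 1.56 ± 0.33 (SD, n = 5) lay 0.21 above the D0 mean of 1.36 ± 0.40 (SD, n = 5), with a 95% confidence interval from -0.18 to 0.59 (limma adjusted p = 0.670). It was 0.039 without D0 mouse 2, 0.12 without D2 mouse 30 and 0.32 without D2 mouse 26.

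Cd79b spread more widely. Its D0 values were 1.44, -0.46, 1.18 and 0.65 in mice 1, 2, 3 and 5. The spot of mouse 4 carried an outlier mark and was dropped, so that D0 has n = 4 here. Its reference signal was 4882 units, against 987.5 to 3418 on the other arrays. It read 1.41, 0.51, 0.79 and 0.73 at D1, 0.80, 0.65, 1.46, 1.66 and 1.76 at D2, and 0.88, 0.80, 0.78 and 0.03 at D3, with mice in the order given for Cd79a. Mouse 2 and D3 mouse 35 lay far below the other mice. The D2 difference from D0 was 0.56 (SE 0.32, limma adjusted p = 0.451) and the D3 difference -0.08 (SE 0.34, limma adjusted p = 0.915). Without D0 mouse 2 they were 0.18 and -0.47, and the D3 difference turned positive without D0 mouse 1 (0.16), D0 mouse 3 (0.078) or D3 mouse 35 (0.12). The D3 difference was also positive with outlier-marked spots kept (0.031), which brings back mouse 4, with the log2 ratios as deposited (0.044), with arrays centred on their medians (0.19) and without slide 2 (0.024).

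Ms4a1 encodes CD20, a B cell surface channel-like protein. It read 0.65, -0.84, 0.62, -0.27 and 0.04 at D0, 0.71, 0.18, 0.02 and 0.04 at D1, 0.14, -0.24, 0.86, 0.70 and 1.20 at D2, and 0.28, -0.04, 0.30 and -0.79 at D3. D2 mouse 30 was highest and mice 2 and 35 lowest. The D2 mean exceeded the D0 mean by 0.49, with a 95% confidence interval from -0.13 to 1.11 (limma adjusted p = 0.478). It was 0.27 without D0 mouse 2 and 0.32 without D2 mouse 30.

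Cr2, the complement receptor of mature B cells and follicular dendritic cells, had the largest D2 difference of the 8 genes. Its brighter probe read 3.58, 1.91, 4.10, 3.71 and 3.35 at D0 and 3.30, 3.32, 3.90 and 3.51 at D1. At D2 it read 3.89, 3.39, 3.60, 5.14 and 4.79, and at D3 3.17, 2.86, 3.90 and 3.34. D2 mice 29 and 30 lay above every other mouse and D0 mouse 2 below every other mouse, while D2 mice 23, 26 and 28 lay within the D0 range. The D2 mean of 4.16 ± 0.76 (SD, n = 5) was 1.78-fold the D0 mean of 3.33 ± 0.84 (SD, n = 5), a log2 fold change of 0.83 with a 95% confidence interval from 0.08 to 1.58. That difference was not called (limma adjusted p = 0.275), and it was 0.47 without mouse 2 (limma adjusted p = 0.517). With slide as a term in the model the difference stayed 0.83 and was called (limma adjusted p = 0.0471), the only member call under any setting tried.

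The other Cr2 probe gave the same D2 order at the top, with mice 29 and 30 at 2.34 and 2.33, and a D2 difference of 0.51 (SE 0.21, limma adjusted p = 0.244). The probes differed elsewhere. D2 minus D1 was 0.66 by the brighter probe and 0.13 by the other, and D3 minus D0 was -0.02 and 0.32. By the brighter probe D2 minus D1 was 0.41 without D2 mouse 29.

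Fcer2a encodes CD23, the low-affinity IgE receptor of follicular B cells. It read 1.96, 0.90, 2.22, 1.93 and 2.04 at D0, 2.40, 1.80, 2.53 and 2.45 at D1, 2.24, 1.58, 2.40, 2.89 and 2.85 at D2, and 1.66, 1.89, 2.51 and 1.97 at D3. D2 mice 29 and 30 were again highest and mouse 2 lowest, and 3 of the 4 D1 mice lay above all D0 mice. Against D0 the difference was 0.49 at D1 (SE 0.27, limma adjusted p = 0.333), 0.58 at D2 (SE 0.25, limma adjusted p = 0.282) and 0.20 at D3 (SE 0.27, limma adjusted p = 0.697). Without D0 mouse 2 these were 0.26, 0.36 and -0.03.

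The inhibitory receptors Cd72 and Cd22 were measured in every mouse. Cd72 read 0.01, -1.08, -0.16, -0.41 and -0.34 at D0, -0.20, -0.32, -0.30 and -0.68 at D1, -0.26, -0.48, -0.14, 0.10 and 0.24 at D2, and -0.47, -0.81, -0.65 and -1.21 at D3. All 4 D3 mice lay below the D0 mean, and D3 was 0.39 below D0 in the mean, with a 95% confidence interval of the log2 fold change from -0.80 to 0.01 (limma adjusted p = 0.205). The other Cd72 probe gave -0.43 for the same difference (limma adjusted p = 0.157). Between D3 and D2 the probes gave -0.68 each (limma adjusted p = 0.176 and 0.169). The D3 and D2 mice did not overlap on the second of them, where the highest D3 mouse read -0.50 and the lowest D2 mouse -0.41, the only member probe and pair of doses among those compared with no overlap. Over all tested probes, 1.83% had D3 mice all below the D2 mice, and 0.106% were called between D3 and D2. Without D3 mouse 35 the D3 difference of Cd72 from D0 was -0.25.

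Cd22 varied little. Its log2 ratio ran from 0.13 to 0.64 over all mice, and its mean was 0.50 ± 0.04 (SD, n = 5) at D0, 0.40 ± 0.19 (SD, n = 4) at D1, 0.45 ± 0.12 (SD, n = 5) at D2 and 0.39 ± 0.18 (SD, n = 4) at D3. The D2 difference of -0.05 had a 95% confidence interval from -0.24 to 0.13 (limma adjusted p = 0.855). Its sign turned under 2 of 34 alternatives, with 0.087 when arrays were centred on their medians. Mouse 2, the lowest D0 mouse for each of the other 7 tested genes, read 0.55 here, the highest D0 value.

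The kinase Blk was dim, with lung signal well above background in 12 of 18 mice and in no more than 3 mice of any group, and was not tested. Its log2 ratio lay between 0.05 and 0.50 in D0 mice, between 0.44 and 0.76 in D1 mice, between 0.40 and 0.61 in D2 mice and between 0.29 and 0.55 in D3 mice. The groups overlapped. Fitted with no filter on dim probes, Blk lay 0.26 above D0 at D1 at an unadjusted p under 0.05 (SE 0.09, limma adjusted p = 0.179) and -0.02 from the mean of D1 and D3 at D2. Pax5, the lineage transcription factor, read 0.88, 0.43, 0.56, 0.61 and 0.79 at D0, 0.56, 0.39, 0.33 and 0.57 at D1, 0.58, 0.54, 0.50, 1.15 and 1.02 at D2, and 0.29, 0.40, 0.63 and 0.32 at D3. D2 mice 29 and 30 stood above all other mice, and the other 3 D2 mice lay within the D0 range. The D2 difference from D0 was 0.11 (SE 0.12, limma adjusted p = 0.766), and 0.0084 without mouse 29 and 0.041 without mouse 30. Its sign turned without slide 2 (-0.16) and with the scanner's processed signals (-0.12). The other Pax5 probe was well above background in 1 mouse and was not tested.

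**Figure D2:**
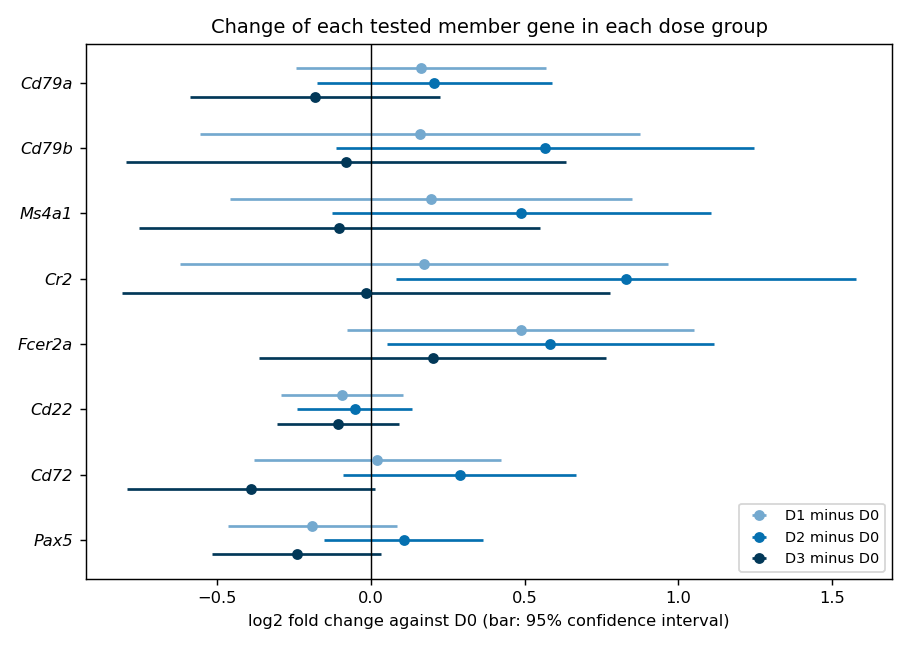
The log2 fold change of each tested member gene against D0 (horizontal axis, points) with its 95% confidence interval (bars) at D1, D2 and D3, which share the D0 mice. At D2 the intervals of Cr2 (0.08 to 1.58) and Fcer2a (0.05 to 1.11) lie above 0 before adjustment over all probes, and those of the other genes include 0. Without D0 mouse 2 the D2 values were 0.47 for Cr2 and 0.36 for Fcer2a.

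The higher values at D2 alone had been seen earlier in these same arrays, so the comparison of D2 with the doses on either side describes that observation and is not independent support for it. Against the mean of D1 and D3, all 8 genes lay higher at D2, with a median log2 difference of 0.38, but 0 member probes and 0% of all probes were called by limma. At an unadjusted p under 0.05, 4 member probes lay higher (5.51% of all probes did): both Cd72 probes (0.47 each), Pax5 (0.32) and the brighter Cr2 probe (0.75). The lowest adjusted p was 0.260. For D2 against D1 the median over the genes was 0.28, 0 member probes and 0% of all probes were called, and Pax5 alone lay higher at an unadjusted p under 0.05 (3.94% of all probes did). For D3 against D2 the median was -0.49 and 4 member probes lay lower at that level (5.91% of all probes did), with a lowest adjusted p of 0.169. These 4 were both Cd72 probes, the brighter Cr2 probe and Pax5, while the other Cr2 probe gave -0.18. Without slide 2, which held D2 mice 29 and 30, these medians were 0.15 against the mean of D1 and D3, 0.05 against D1 and -0.32 for D3 against D2. Without mouse 30 alone, the median of D2 against D1 was 0.15.

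The D2 difference was carried unevenly by mice and slides. The mean over the 8 genes, as a difference from the D0 mean, was 0.77 in D2 mouse 30 and 0.75 in mouse 29, against 0.34, 0.15 and -0.12 in D2 mice 28, 23 and 26. Mice 29 and 30 were hybridised on the same slide, the second of 3. Within slides, D2 minus D0 for this mean was 0.31 on slide 1 (2 mice against 2), 0.59 on slide 2 (2 against 2) and 0.10 on slide 3 (1 against 1). On slide 1 the value turned to -0.23 without D0 mouse 2, which leaves 2 mice against 1. D2 minus D1 was -0.01 on slide 1, 0.61 on slide 2 and 0.08 on slide 3. On the control side, D0 mouse 2 stood at -0.74 and D0 mice 1, 3, 4 and 5 at 0.34, 0.34, 0.01 and 0.05. Without mouse 2 the median D2 fold change over the genes dropped from 0.39 to 0.15, and without slide 2 to 0.24. Every D2 array lay in the third column of its slide and each other group also kept to its own column, so that array position and dose cannot be told apart.

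**Figure D3:**
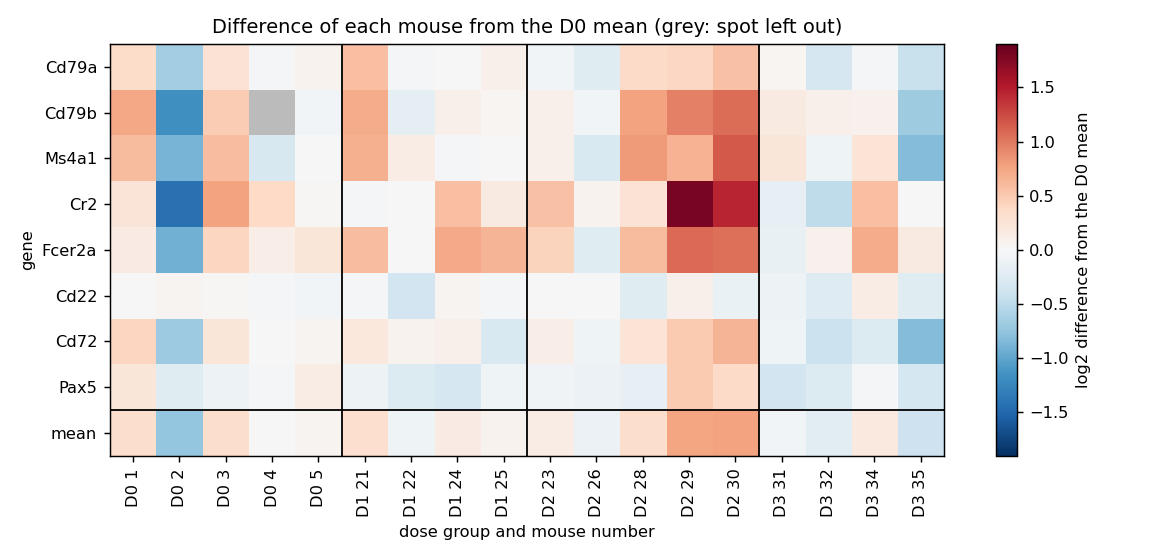
The log2 difference of each mouse (columns, by dose group) from the D0 mean for each tested member gene (rows), with the mean over the genes at the bottom. Mouse 2 is low (mean -0.74), D2 mice 29 and 30 are high (0.75 and 0.77), and the row of Cd22 is nearly flat.

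Of the tested genes, all but Cd22 varied more between mice of the same group than the median probe. The SD within groups was 0.65 for Cr2, 0.56 for Cd79b, 0.53 for Ms4a1 and 0.46 for Fcer2a, against a median of 0.15 over all tested probes. For these 4 genes more than 98% of tested probes varied less. Cd79a and Cd72 each had an SD of 0.32, and Pax5 had one of 0.21, above 78.8% of tested probes. Cd22, with an SD of 0.14, varied less than the median probe.

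The genes other than Cd22 were correlated over the mice, some pairs closely and others loosely. Over the 28 pairs of tested genes, the median Pearson r was 0.674, and 0.661 after each group's mean was removed. Cd79b and Ms4a1 had the highest r (0.953), followed by Cd79a with Cd79b (0.931) and Cd79a with Ms4a1 (0.930). All 21 pairs without Cd22 had an r between 0.54 and 0.95, while the 7 pairs with Cd22 ran from 0.05 to 0.37. These values are over the same 18 mice (17 for Cd79b), share arrays, and are a description. The untested Blk probe had an r of 0.456 with the members' mean.

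Of 14744 other genes, the 10 most like the members' mean over the 18 mice included Bank1 (r = 0.950), Fcrla (0.944), Map4k1 (0.925), Siglecg (0.919), Prkcb (0.916), Stap1 (0.913), Cd37 (0.913), Acap1 (0.912) and H2-Oa (0.912). Over all these genes the median r was -0.01. Bank1 is a B cell adaptor and Siglecg an inhibitory receptor. Bank1 had a D2 log2 fold change of 0.73 (limma adjusted p = 0.195) and none of the 10 was called at D2.

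For the gene lists that follow, the shares of all probes at an unadjusted p under 0.05 were 10.4% higher and 9.41% lower at D1, 7.87% and 6.88% at D2, and 13.1% and 13.1% at D3. Of 28 further genes of the pathway, 25 were tested, and 1 was called against D0 (2.44% of all probes were called at D3): Rasgrp3, an activator of Ras, was higher at D3 (log2 fold change 0.73, limma adjusted p = 0.00194). At an unadjusted p under 0.05, 2, 7 and 4 of the 25 lay higher and 0, 1 and 3 lower at D1, D2 and D3. Ighm and Igkc, the immunoglobulin chains themselves, had no probe matched by accession. Of 12 lineage transcription factors all were tested and 0 were called by limma, with 0, 4 and 0 higher and 2, 1 and 3 lower at an unadjusted p under 0.05 at D1, D2 and D3. Pou2af1, a B cell coactivator, lay 1.00 above D0 at D2 (limma adjusted p = 0.0518), and Ebf1, which specifies the lineage, 0.14 above it (limma adjusted p = 0.50). Among these factors, past the adjusted threshold but under 1.5-fold were Bach2, a repressor of plasma cell fate, at D2 (0.44, limma adjusted p = 0.0425), the inhibitor of E proteins Id3 at D2 (-0.36, limma adjusted p = 0.0232) and D3 (-0.45, limma adjusted p = 0.00224), and the germinal centre repressor Bcl6 at D3 (-0.57, limma adjusted p = 0.0193). Among the pathway genes, Lilrb4a (0.57, limma adjusted p = 0.0062) and Inpp5d (-0.33, limma adjusted p = 0.0253) were so at D3. Lilrb4a was also called higher at D3 than at D2 (0.65, limma adjusted p = 0.0421), as 0.106% of all probes were called there. Of 22 other B cell surface and lineage genes 19 were tested and 0 were called by limma. At an unadjusted p under 0.05, 0, 7 and 1 lay higher and 0, 0 and 1 lower at D1, D2 and D3, and their median log2 fold change was 0.13, 0.37 and 0.016.

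Among genes of antibody-secreting cells, calls were made in both directions. Prdm1, which drives plasma cell differentiation and is also used by other cells, was higher at D2 (0.71, limma adjusted p = 0.00417) and D3 (0.97, limma adjusted p = 0.000117). Jchain, which links secreted IgA and IgM, was lower at D3 (-0.70, limma adjusted p = 0.00848). These were the genes called against D0 among the 6 tested of 10 plasma cell genes. At an unadjusted p under 0.05, 2 lay higher and 2 lower at each dose. Past the adjusted threshold but under 1.5-fold were Prdm1 at D1 (0.55, limma adjusted p = 0.0214) and Xbp1 at D3 (-0.57, limma adjusted p = 0.00268). So was Derl3 at D1 (0.41, limma adjusted p = 0.0258) and D3 (0.32, limma adjusted p = 0.0462). The list's mean per mouse had an r of 0.110 with that of the members, and its genes singly ran from -0.62 (Sdc1) to 0.73 (Mzb1). Cxcl13, which draws B cells into follicles, read -0.84 at D2 (limma adjusted p = 0.130) and -0.80 at D3 (limma adjusted p = 0.0803). Of the 7 tested genes of lymphoid tissue 0 were called by limma, with 0, 0 and 2 higher and 0, 1 and 1 lower at an unadjusted p under 0.05 at D1, D2 and D3. The 2 higher at D3 were Tnfsf13b (0.42, limma adjusted p = 0.0263), past the adjusted threshold but under 1.5-fold, and Lta (0.27, limma adjusted p = 0.0862).

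The mean of 14 tested T cell genes (of 15) had an r of 0.658 with the members' mean over the 18 mice, and 0.806 within groups. It lay between -0.26 and 0.12 in D0 mice, between -0.09 and 0.10 in D1 mice, between -0.00 and 0.40 in D2 mice and between -0.02 and 0.51 in D3 mice, and mouse 2 was the lowest of all here too. Within D2, mice 29 and 30 were again highest, at 0.40 and 0.37. By limma 0 T cell genes were called, and at an unadjusted p under 0.05, 7 of the 14 lay higher at D2 (7.87% of all probes did) and 7 at D3 (13.1% did), while 0 lay lower at D1 and D2 and 1 at D3. Singly, the T cell genes had an r with the members' mean from 0.14 (Cd3e) to 0.65 (Cd3d). The mean of 9 tested genes of NK and cytotoxic cells (of 10) had an r of 0.317 over all mice and 0.703 within groups, and Gzma, a granule protease, was lower at all 3 doses (-1.60, -2.13 and -3.07). Prf1 (-0.66) and Tbx21 (-0.71) were lower at D3. At an unadjusted p under 0.05, 5, 7 and 6 of the 9 lay lower and 0 higher at D1, D2 and D3. The part of lymphocyte content as a whole in the members' values was not tested. Of 7 lymphocyte precursor genes 3 were tested and 0 were called by limma, with 1 higher at D3 at an unadjusted p under 0.05, and the list had an r of -0.05.

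**Figure D4:**
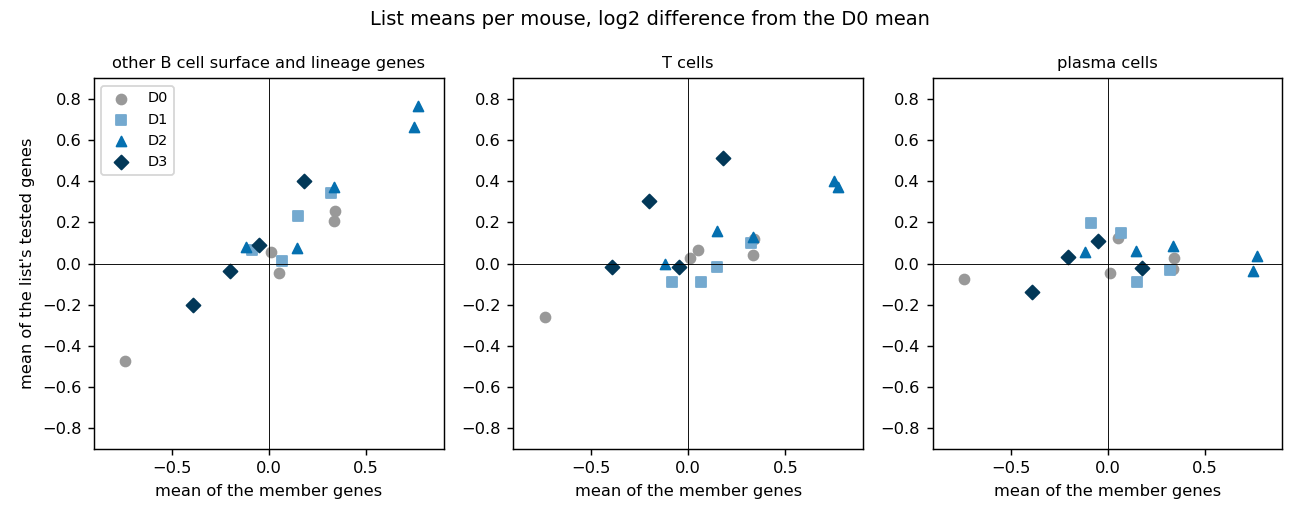
The mean log2 difference from D0 of 3 gene lists (vertical axes) against that of the 8 member genes (horizontal axis), with 1 point per mouse and shape and shade by dose group. Other B cell genes follow the members closely (r = 0.950) and T cell genes less so (0.658). The mean of the plasma cell genes, which moved in both directions singly, stays between -0.14 and 0.20 with an r of 0.110.

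Some genes of other cells were called against D0. All 5 tested neutrophil genes, S100a8, S100a9, Retnlg, Cxcr2 and Mmp9, were higher at D3 (S100a8 by 1.77, limma adjusted p = 0.00178). The mean of these genes was 2.12 in D3 mouse 34, 0.61 to 0.93 in the other D3 mice and at most 0.41 in D0 mice. It had an r of 0.015 with that of the members, and 0.197 within groups. Siglecf, of alveolar macrophages and eosinophils, was lower at D2 (-1.05, limma adjusted p = 0.036), Cd209a, of dendritic cells, lower at D3 (-0.82, limma adjusted p = 0.00141), and the endothelial gene Pecam1 higher at D1 and D3 (0.67 and 0.66). Of the 8 tested macrophage and monocyte genes, 1, 0 and 1 lay higher and 1, 5 and 2 lower at an unadjusted p under 0.05 at D1, D2 and D3. Among the 5 was Chil3 (-1.39, limma adjusted p = 0.0585). Marco, of the same list, went the other way, by 0.71 at D1, 0.37 at D2 and 0.94 at D3 (limma adjusted p = 0.246, 0.656 and 0.0745). The list's mean lay between -0.64 and -0.15 in D2 mice against -0.18 to 0.12 in D0 mice. The part of these cells in the members' values was not tested. Lyz2, of myeloid cells, read -0.10 at D2. Of 4 tested red blood cell genes 0 were called by limma, and Slc4a1 lay higher at an unadjusted p under 0.05 at D2 (0.58) and D3 (0.74). The mean of these genes was 0.36 in D2 mice 29 and 30, -0.13 to 0.18 in the other D2 mice and 0.75 in D3 mouse 35. The part of blood in the members' values was not tested. The list means had an r with the members' mean of 0.447 for 10 lung tissue genes, among them the surfactant gene Sftpc, 0.106 for blood, 0.615 for dendritic cells and -0.12 for macrophages. Within groups they were 0.486, 0.102, 0.592 and 0.288 in that order, so that the sign for macrophages turned. These r values are descriptions over the 18 mice, and some lists share genes. The 4 tested dendritic cell genes ranged singly from -0.31 (Flt3) to 0.75 (Ccr7, a homing receptor that lymphocytes also carry). At an unadjusted p under 0.05, 0, 1 and 1 of the 4 lay higher and 1, 2 and 2 lower at D1, D2 and D3. Ccr7 lay 0.73 above D0 at D2 (limma adjusted p = 0.0785) and 0.50 above it at D3 (limma adjusted p = 0.158).

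The reference signal differed widely between the probes. Its median was 2978 units for Cd79b, 1152 for Ms4a1 and between 586 and 596 for the Cd72 probes, but 71.5 for Cd79a, 86.5 for the brighter Cr2 probe and 70.0 for the tested Pax5 probe, near the median reference signal of all spots on an array (65.0 to 93.0). No background was subtracted, which in general shrinks differences of dim probes. Mouse 35 was hybridised on 2 slides, and its member log2 ratios differed between them by 0.42 or less.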

How the data were processed

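Lung RNA of 18 mice was hybridised to 19 Agilent 2-colour arrays (8, 7 and 4 on 3 slides), with lung in red (Cy5) and Universal Mouse Reference RNA in green (Cy3) and no dye swap. Per the file headers, spot intensity was extracted with Feature Extraction 11.0.1.1, whereas the methods name another version. The authors also deposited a table of log2 ratios, used here as an alternative. Groups came from the sample labels.

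From the median intensity without background subtraction, as in the methods, log2 ratios were computed and corrected by loess (span 0.3) within each array in R 4.3.3. Control spots were left out, as were those marked as outliers (171 to 323 per array), spots of a probe were averaged, and the arrays of mouse 35 were averaged. A probe was tested if lung signal was well above background in at least 4 mice of 1 group and at least 3 mice of each group had a value, which 31051 of 55681 probes met. One limma 3.58.1 model (lmFit, eBayes) covered the 4 groups, with Benjamini-Hochberg adjustment over all tested probes, and was tested on simulated data. A call needs an adjusted p of at most 0.05 and 1.5-fold. The study's own test, MAANOVA with residual shuffling, was not run. Accessions named 27235 of 28685 RefSeq probe identifiers. A gene of several probes is given by the brightest tested one. The number of mice limits the precision.

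The members and gene lists were chosen with earlier results of these data known. Named genes are the 9 members, the genes of other lists called against D0, the defining genes of each list, 3 exposure markers, and the 10 genes with the highest r with the members' mean, of which 1 is not reported here. Cd3d, Chil3, Marco, Slc4a1, Flt3, Ccr7, Bach2, Id3, Bcl6, Lilrb4a, Inpp5d, Xbp1, Derl3, Sdc1, Mzb1, Tnfsf13b and Lta were named after their values were seen. Alternatives covered signal type, centring, filter, slide, the label of mouse 23, the arrays of mouse 35 and each mouse left out.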

Additional observations from a re-analysis of the deposited data

Results flagged for a closer look

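In 32 groups of 4 or 5 mice (8 genes, 4 dose groups), the lowest or highest mouse stood far from the others 2 times, and chance alone marks about 1 group in 20. For Cd79b, D3 mouse 35 read 0.031 on the log2 scale, against 0.78 for the next of the 4 mice and 0.88 for the highest, and its arrays gave 0.035 and 0.027 on slides 2 and 3. For Fcer2a, D0 mouse 2 read 0.90, against 1.93 for the next of the 5 mice and 2.22 for the highest.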

How the results depend on the processing

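Under 34 alternatives, 1626 log2 fold changes of member genes were recomputed, and 1 changed its call, Cr2 at D2 with slide as a term in the model (1 member probe called). The sign changed in 56 of them, and the largest such difference in the analysis reported above was 0.29 in size. The median over the member genes at D1 was 0.16 and became -0.12 without D0 mouse 2 and -0.051 without slide 1, an alternative chosen after seeing the data, as were keeping marked spots and slide 1 without mouse 2. Leaving out each of 18 mice gave medians between -0.12 and 0.27 for D1, between 0.15 and 0.53 for D2, and between -0.34 and -0.03 for D3. The choice of scaling moved the medians too. With arrays centred on their medians they were 0.31 at D1, 0.56 at D2 and 0.014 at D3, and with the scanner's processed signals 0.016, 0.38 and -0.29. With mouse 23 counted in D1 the D2 median was 0.46, and the log2 ratios as deposited gave 0.38. Without mouse 2, Cd72 at D3 had an adjusted p of 0.0333 (limma) at -0.56, under 1.5-fold. Of the 10 genes most like the members, 5 remained when likeness was taken over deviations from group means. No paired analysis was possible because the mouse numbers do not recur between groups. Without slide 1, Cd79b had too few D0 mice for a value.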
